A study of Mus musculus with 43 samples.

Results

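The genes described here encode the enzymes that make, recycle, interconvert and break down purine nucleotides. They were chosen by gene symbol alone from a library of single guide RNAs (sgRNAs) against metabolic genes. No measured value entered that rule, but earlier results of these data were known when it was set. The genes comprised 38 of the 2078 genes of the library and 190 of its 10640 sgRNAs, with 5 sgRNAs per gene. By role, 8 belong to the de novo route to inosine monophosphate (IMP), 5 to the conversion of IMP to AMP and GMP, 4 to salvage, 11 to interconversion and breakdown, and 10 are nucleotide kinases. The screen used OT-I cells, ovalbumin-specific CD8+ T cells of the mouse, sorted as CD90.1+. All of them, those of the reference included, carried a Cas9 knock-in and the lentiviral library, whose vector marks transduced cells with CD90.1. The cells were given by tail vein to mice with orthotopic KPC_OVA tumours, a pancreatic ductal adenocarcinoma line that expresses ovalbumin, and anti-PD-1 began that day. IgG was the control treatment. After 7 days, cells were sorted from primary tumour, lung, liver, peritoneal metastases, spleen, tumour-draining lymph nodes and nondraining lymph nodes. The reference, T0, was an aliquot held in vitro when the transfer was done. According to the methods T0 cells had already been expanded in culture with the library, so that guides lost before transfer cannot be seen as lost afterwards. The labels give no age of the animals, and the line carries a foreign antigen, which limits it as a model of a spontaneous tumour.

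Purine nucleotides are built de novo on a ribose phosphate, in a chain of enzymatic steps that runs from phosphoribosyl pyrophosphate (PRPP) to IMP, and IMP is then turned into AMP or GMP. Salvage enzymes instead attach PRPP to preformed bases or phosphorylate nucleosides, and kinases raise the monophosphates to the diphosphates and triphosphates used in nucleic acids and energy transfer. Dividing lymphocytes need large pools of these nucleotides, and inhibitors of IMP dehydrogenase are used as immunosuppressants for that reason. In a screen of this kind, cells that carry a guide which slows their expansion or survival leave fewer copies of that guide in the sorted population. Fewer divisions, more death and less entry into an organ cannot be told apart from such a measurement.

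Of 43 samples, 41 libraries carried values, since replicate 1 of the IgG peritoneal metastases and replicate 2 of the anti-PD-1 liver had been excluded by the authors. Liver anti-PD-1 was thus 1 library, liver IgG and peritoneal metastases IgG were 2 each, and T0 and the other groups were 3 each. Replicate 2 of the anti-PD-1 peritoneal metastases carries a tissue label of spleen, and leaving it out kept all 12 calls described below. The measure used throughout, called the level, is the mean over the 5 sgRNAs of a gene of log2(value + 1), minus the median of the nontargeting sgRNAs in that library. In lymph nodes 48.6% to 91.5% of all gene-targeting sgRNAs sat at the lowest value their sgRNA takes in libraries of the same replicate number, against 2.83% to 42.7% in the 26 libraries of the other organs. The lymph nodes are therefore described separately. All comparisons with a reference use the same 3 T0 libraries.

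Guides against 12 of the 38 purine genes were lower than T0 in the mean of the 10 groups outside the lymph nodes, and none were higher. Across all library genes, 318 of 2078 (15.3%) were lower and 2 (0.0962%) were higher, as called by limma after Benjamini-Hochberg adjustment over all genes. By role, the 12 were 6 of 8 genes of the de novo route (median change -5.40), 3 of 5 of the conversion of IMP (median -4.40) and 3 of 10 kinases (median -0.65), with 0 of 4 salvage genes (median -0.79) and 0 of 11 genes of interconversion and breakdown (median -0.27). The median change was -0.63 over the 38 genes and -0.55 over all genes. In counts per organ and treatment, 88 of 130 combinations of a synthesis or IMP conversion gene with a group were called lower, against 30 of 250 for the remaining genes, of which 29 were kinases. Of all library genes, 10.8% to 18% were called lower per group in the groups with more than 1 library. That range includes the share of the remaining purine genes. In each of the 12 genes T0 replicate 3 had the highest level of the 3 T0 libraries. Their mean level minus that of the other 26 purine genes was -0.69, -0.49 and 0.32 in T0 replicates 1, 2 and 3.

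The largest fall among the purine genes was that of Ppat, which encodes the amidotransferase that commits PRPP to purine synthesis. Its levels in the 3 T0 libraries were -0.23, 0.17 and 0.89. They were -7.13 to -5.34 (median -6.09) in primary tumour, -7.34 to -5.13 (median -6.67) in lung and -6.39 to -5.42 (median -6.11) in spleen, with 6 libraries in each. In liver they were -6.61, -5.01 and -5.96, the last under anti-PD-1, and in peritoneal metastases -6.68, -5.18, -5.49, -6.96 and -5.59, the first 2 under IgG, an order kept for the genes that follow. Every one of the 26 libraries lay below every T0 library, and the ranges of all 5 organs overlapped. The change was -6.40 (SE 0.636, adjusted p = 1.31e-11) by limma with Benjamini-Hochberg adjustment, which ranked 11th from the lowest of 2078 genes. Within replicate numbers, the mean of the organs minus the T0 library of that number was -6.28, -6.67 and -6.48.

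Gart encodes the trifunctional enzyme of the glycinamide ribonucleotide steps and includes a transfer of a formyl group from folate. In T0 the Gart level was -0.48, -0.25 and 0.69. It was -6.27 to -5.39 (median -6.01) in primary tumour, -7.27 to -5.66 (median -6.66) in lung and -7.28 to -4.28 (median -4.87) in spleen. Liver libraries had -4.74, -6.30 and -6.25 and peritoneal libraries -6.58, -6.04, -6.69, -5.90 and -4.52. Again no library reached T0, and the change was -5.89 (SE 0.652, adjusted p = 2.40e-10) by limma with Benjamini-Hochberg adjustment. Pfas, the amidotransferase that adds nitrogen to formylglycinamide ribonucleotide, had T0 levels of -0.45, -0.10 and 0.67. Its levels were -5.91 to -4.66 (median -4.99) in primary tumour, -7.33 to -3.92 (median -5.23) in lung and -6.07 to -3.82 (median -4.56) in spleen. They were -4.78, -4.94 and -5.63 in liver and -4.87, -5.74, -5.32, -6.09 and -4.54 in peritoneal metastases. Both lung and spleen spanned a wider range than primary tumour for this gene, and none of their libraries overlapped T0. The change of Pfas was -5.21 (SE 0.685, adjusted p = 1.45e-08) in the same fit.

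Paics encodes a bifunctional carboxylase and succinocarboxamide synthetase, and Adsl the lyase that acts next in the chain and again on the way to AMP. Paics stood at -0.37, -0.12 and 0.85 in T0. After transfer its levels were -6.37 to -5.20 (median -5.68) in primary tumour, -7.39 to -4.71 (median -7.09) in lung and -7.34 to -3.95 (median -6.42) in spleen. They were -6.12, -5.32 and -5.20 in liver and -6.94, -7.32, -5.88, -4.88 and -6.47 in peritoneal metastases. All were below T0, and the lung median was the lowest of the organs. The change of Paics was -6.24 (SE 0.660, adjusted p = 7.14e-11) by limma with Benjamini-Hochberg adjustment. For Adsl, T0 levels of -0.70, -0.50 and 0.35 were followed by -6.03 to -5.62 (median -5.76) in primary tumour, -7.27 to -5.24 (median -5.88) in lung and -6.93 to -4.82 (median -6.24) in spleen. Adsl was at -6.44, -5.22 and -5.54 in liver and -7.52, -4.79, -6.76, -4.17 and -5.30 in peritoneal metastases. Primary tumour libraries lay close together for Adsl, whereas those of peritoneal metastases were spread most widely, again without reaching T0. Adsl changed by -5.58 (SE 0.635, adjusted p = 4.97e-10) in the same fit.

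Atic encodes the enzyme that closes the ring and releases IMP, with a second formyl transfer from folate. It fell least among the 6 called genes of the route. Its T0 levels were -0.53, -0.70 and -0.04. Afterwards they were -4.40 to -3.23 (median -4.07) in primary tumour, -5.24 to -2.60 (median -4.13) in lung and -4.35 to -2.96 (median -3.79) in spleen. Liver libraries were at -3.19, -4.57 and -3.94 and peritoneal ones at -2.94, -3.16, -4.80, -3.20 and -2.64. None overlapped T0, and the change was -3.39 (SE 0.699, adjusted p = 1.15e-04) by limma with Benjamini-Hochberg adjustment. Atic was called in 8 of 10 groups, the exceptions being liver anti-PD-1 and peritoneal metastases IgG. Its smaller mean hid a split between its guides. One Atic sgRNA, s_07584, changed by 0.19, and another, s_07581, had a T0 level of -4.69 and sat at its lowest value in all 26 libraries, so that it had little room to fall and moved by -2.69. The other three changed by -3.57, -5.22 and -5.65.

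Prps1 and Prps2 encode 2 forms of PRPP synthetase, which supplies PRPP both to the de novo route and to salvage. Neither was called. Prps1 changed by -0.64 (SE 0.773, adjusted p = 0.934) and Prps2 by -0.42 (SE 0.779, adjusted p = 0.934) in the limma fit, with Benjamini-Hochberg adjustment. The 95% intervals were -2.19 to 0.91 for Prps1 and -1.98 to 1.14 for Prps2, so falls of the size seen for Ppat lie outside both. None of the 10 sgRNAs against these genes fell below the 5th percentile of the nontargeting sgRNAs. Prps1 minus Prps2 within a library did not differ from T0 beyond the spread between libraries (difference -0.14, exact two-sided permutation test, p = 0.813, adjusted p = 0.892 over 7 pairs). Whether one form stands in for the other was not tested.

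At the branch from IMP to GMP, Impdh2 fell and Impdh1 was not called. Both encode IMP dehydrogenase, the first step towards GMP. Impdh2 levels were -0.02, -0.03 and 0.89 in T0 and then -4.33 to -3.65 (median -3.90) in primary tumour, -6.84 to -4.54 (median -5.42) in lung and -4.68 to -2.13 (median -2.74) in spleen. They were -3.45, -2.59 and -4.25 in liver and -3.88, -4.03, -5.69, -5.15 and -3.82 in peritoneal metastases. Lung was lowest and spleen highest, and all 26 libraries were below T0. The change was -4.40 (SE 0.638, adjusted p = 1.37e-07) by limma with Benjamini-Hochberg adjustment, against -0.63 (SE 0.809, adjusted p = 0.934) for Impdh1 (95% interval -2.25 to 0.997). Inside each library, where centring plays no part, Impdh2 minus Impdh1 was -0.24, -0.18 and 0.68 in T0 and -5.77 to 0.96 (median -3.84) in the 26 libraries. The mean difference from T0 was -3.81 (exact two-sided permutation test over libraries, p = 0.00110, adjusted p = 0.00192 over 7 pairs of purine genes). With the same test permuted only within replicate numbers, p was 0.00227 and adjusted p 0.00398. The 7 pairs were chosen with earlier results of these data known, so a small p-value is no independent evidence for a pair. In 25 libraries Impdh2 minus Impdh1 was below all T0 values, and in 1, spleen anti-PD-1 replicate 2, it was above them. Impdh1 stood at -3.88 there, its lowest level outside the lymph nodes.

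Gmps encodes GMP synthetase, which completes the branch. T0 levels of Gmps were -0.07, -0.19 and 0.75. Levels after transfer were -5.40 to -3.05 (median -4.91) in primary tumour, -6.95 to -3.25 (median -6.04) in lung and -6.09 to -2.45 (median -4.37) in spleen. Liver had -3.11, -4.59 and -4.28 and peritoneal metastases -3.93, -5.89, -5.47, -5.64 and -4.22. Gmps varied most of the de novo and IMP conversion genes that were called (SD 1.21 over the 26 libraries), without overlap with T0. Its change was -4.96 (SE 0.721, adjusted p = 1.38e-07) by limma with Benjamini-Hochberg adjustment.

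On the branch to AMP, Adss encodes the widely expressed adenylosuccinate synthetase and Adssl1 the form of muscle. Adss stood at -0.47, -0.23 and 0.15 in T0. It was then -5.00 to -4.01 (median -4.31) in primary tumour, -7.13 to -3.89 (median -5.86) in lung and -6.09 to -3.70 (median -5.34) in spleen. Liver libraries had -5.65, -4.46 and -5.74 and peritoneal libraries -5.75, -4.65, -6.39, -4.16 and -4.22. No library overlapped T0, and the change was -4.98 (SE 0.691, adjusted p = 4.78e-08) by limma with Benjamini-Hochberg adjustment, whereas Adssl1 changed by -0.26 (SE 0.759, adjusted p = 0.944). Adss minus Adssl1 within a library was -0.78, -0.63 and -0.15 in T0 and -7.11 to -3.67 (median -4.95) in the 26 libraries, all of them below T0. The difference of -4.63 had p = 0.000274 by the exact two-sided permutation test, the smallest value that 3654 arrangements allow, and an adjusted p of 0.000639 over the 7 pairs. With the same test permuted only within replicate numbers, p was 0.00114 and adjusted p 0.00265. This pair too was chosen with earlier results of these data known.

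No salvage gene was called in the mean outside the lymph nodes. Hprt encodes the phosphoribosyltransferase of hypoxanthine and guanine. Hprt levels were 0.02, 0.35 and 0.35 in T0, and later -0.57 to 0.38 (median -0.09) in primary tumour, -5.25 to 1.21 (median -1.83) in lung and -1.37 to 0.14 (median -0.05) in spleen. They were 0.35, 0.10 and -1.29 in liver and -1.55, -0.18, -0.23, -0.56 and -0.46 in peritoneal metastases. Primary tumour, spleen and liver overlapped T0, while the 6 lung libraries ran from far below T0 to above it. Outside the lymph nodes the mean change was -0.90 (SE 0.771, adjusted p = 0.883) by limma with Benjamini-Hochberg adjustment, with a 95% interval of -2.45 to 0.64. Hprt was the only salvage gene called in any of the 10 groups, with -2.82 in lung IgG (adjusted p = 0.0460 in the same fit, 18% of all genes lower there). That call rested on IgG replicate 1, at -5.25, since replicates 2 and 3 were at -2.49 and 0.0049, and without replicate 1 the change was -1.49 and was not called. In the same lung library 42.7% of all gene-targeting sgRNAs were at their lowest value, the highest share outside the lymph nodes.

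Aprt encodes the matching enzyme for adenine. Its T0 levels were 0.18, 0.17 and 0.60. They were then -0.48 to 1.03 (median 0.01) in primary tumour, -3.20 to 0.70 (median -1.11) in lung and -2.32 to -0.10 (median -1.16) in spleen. Liver libraries were at -0.03, -0.59 and -0.98 and peritoneal libraries at -0.65, -0.86, 0.07, -1.07 and -0.33. The changes were small beside those of the de novo genes, although 24 of 26 libraries were below all T0 libraries. The mean change of -1.03 (SE 0.731, adjusted p = 0.748) did not pass the test in limma with Benjamini-Hochberg adjustment, with a 95% interval of -2.49 to 0.44. Hprt minus Aprt within a library did not differ from T0 beyond the spread between libraries (difference 0.14, exact two-sided permutation test, p = 0.769, adjusted p = 0.892), and its range in the 26 libraries, -2.04 to 2.35, included that of T0.

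Adk, adenosine kinase, had T0 levels of 0.65, 0.55 and 0.63. Its later levels were 0.08 to 0.73 (median 0.45) in primary tumour, -0.90 to 0.08 (median -0.34) in lung and -1.38 to 0.81 (median -0.08) in spleen. In liver they were -0.48, -0.26 and -0.41 and in peritoneal metastases 0.95, -0.62, 0.52, -1.20 and 0.85. Most lay slightly below T0, and some in primary tumour, spleen and peritoneal metastases above it. The change was -0.68 (SE 0.833, adjusted p = 0.934) by limma with Benjamini-Hochberg adjustment, with a 95% interval of -2.35 to 0.99. Dguok, the mitochondrial deoxyguanosine kinase, changed by -0.34 and was not called either.

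De novo and salvage genes can be set side by side within each library, which removes the centring. The mean level of the 13 synthesis and IMP conversion genes, called or not, minus that of the 4 salvage genes was -0.49 to 0.08 (median -0.38) in the 3 T0 libraries. In the 26 libraries it was -4.18 to -2.29 (median -3.40), without overlap. By organ the medians were -3.66 in primary tumour, -3.53 in lung, -3.11 in spleen, -3.30 in liver and -3.18 in peritoneal metastases, and primary tumour libraries were the most alike, at -3.77 to -3.41. Every liver library, at -3.38 to -2.88, lay above every primary tumour library, whereas the ranges of lung, spleen and peritoneal metastases overlapped both. The differences between organs in this measure were not tested.

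The kinases called lower included Guk1 and Ak6. Guk1 is the guanylate kinase that makes GDP from GMP. Guk1 levels were -0.26, -0.30 and 0.27 in T0 and -5.03 to -2.88 (median -4.34) in primary tumour, -5.67 to -4.17 (median -4.71) in lung and -5.36 to -3.32 (median -4.44) in spleen. They were -4.78, -4.82 and -4.19 in liver and -4.52, -4.78, -4.57, -5.94 and -3.86 in peritoneal metastases. All were below T0, with a change of -4.39 (SE 0.682, adjusted p = 6.07e-07) by limma with Benjamini-Hochberg adjustment. Of 5 Guk1 guides, 4 changed by -6.14 to -3.06 on the log2 scale, and the fifth, s_01755, changed by -0.92.

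Ak6 encodes a small nuclear adenylate kinase that also takes part in ribosome maturation. Ak6 stood at -0.44, -0.11 and 0.63 in T0. It was then -3.75 to -2.11 (median -2.85) in primary tumour, -5.66 to -2.88 (median -3.58) in lung and -6.08 to -1.37 (median -3.85) in spleen. Liver libraries were at -2.80, -5.15 and -3.17 and peritoneal libraries at -4.17, -3.72, -4.49, -2.50 and -2.62. The fall was smaller than that of Guk1 and uneven, with a spleen library at -6.08 and another at -1.37, and there was no overlap with T0. The change was -3.56 (SE 0.708, adjusted p = 6.38e-05) by limma with Benjamini-Hochberg adjustment, and liver anti-PD-1 was the group without a call. In the RefSeq gene table of assembly GRCm38.p6, Ak6 lies within 1000 bases of Taf9, which encodes a general transcription factor subunit, and of Rad17. The sgRNA positions were not analysed here, and which of these genes the guides disrupt was not tested. Ppat and Paics lie within 1000 bases of each other in that table, and the same limit holds for them.

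Of the kinases that were not called, Ak4 had the largest change, -1.12 (SE 0.735, adjusted p = 0.641) by limma with Benjamini-Hochberg adjustment, followed by Ak8 at -0.83. The others changed by -0.47 to -0.09. None passed the test, in this contrast or in any single group outside the lymph nodes.

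No gene of interconversion and breakdown was called. Ada and Pnp, deaminase and phosphorylase of purine nucleosides whose loss is known to harm T cells through accumulated deoxynucleosides, changed by -0.18 (SE 0.691, adjusted p = 0.950) and -0.43 (SE 0.722, adjusted p = 0.934) in the limma fit with Benjamini-Hochberg adjustment. The 95% intervals were -1.57 to 1.20 for Ada and -1.88 to 1.02 for Pnp. Pnp2, a second phosphorylase gene, changed by -0.69. The AMP deaminases Ampd1, Ampd2 and Ampd3 changed by -0.43, -0.41 and -0.21, and Gda, guanine deaminase, by -0.44. The GMP reductases Gmpr and Gmpr2 changed by -0.15 and -0.27, and their difference within a library did not pass the test (-0.08, exact two-sided permutation test, p = 0.892, also after adjustment). Itpa, which removes deaminated nucleotides such as ITP, changed by 0.02, and Xdh, the oxidoreductase that makes uric acid, had the highest change of the 38 genes at 0.23 (95% interval -1.27 to 1.73).

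Each sgRNA was compared with the changes of the 250 nontargeting sgRNAs, whose 5th percentile was -1.70, median -0.33 and 95th percentile 0.59. Of the 190 purine sgRNAs, 65 (34.2%) were below that 5th percentile, against 2038 of 10390 (19.6%) of all gene-targeting sgRNAs. All 5 sgRNAs were below it for Ppat, Paics, Gart, Adsl, Pfas, Adss, Gmps, Impdh2 and Ak6, a pattern that 206 of 2078 genes (9.91%) had. For Atic and Guk1, 4 of 5 were below, and the remaining guides changed by 0.19 and -0.92. Hprt, Aprt and Adk had 1 sgRNA each below it, at -2.33, -2.33 and -2.16. Ak4, Gda, Gmpr2, Impdh1 and Pnp2, which were not called either, also had 1 each. Guides of 1 gene share a target and are not replicates of a condition.

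Guides of the same gene differed by several log2 units in some of the called genes. Gart was the most even of the de novo genes, with sgRNAs at -6.41 to -5.43. Pfas ranged from -7.51 to -2.53, with 3 sgRNAs below -6 and s_09146 and s_09149 at -2.53 and -2.58. Impdh2 had s_03752 at -5.87 and s_03754 at -2.08. The lowest guides of Paics, s_05366 and s_05369, changed by -7.26 and -7.22 and were at their lowest value in 24 and 23 of 26 libraries.

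Many guides of the called genes had reached the lowest value, which bounds the size of the falls. Over the 26 libraries, 28.3% to 83.3% (median 52.5%) of the 60 sgRNAs of the 12 called genes were at that value, against 0% to 33.8% (median 1.54%) of the other 130 purine sgRNAs, and none of either in T0. By gene the share over sgRNAs and libraries was 73.8% for Paics, 70% for Ppat, 65.4% for Adsl, 64.6% for Gart, 35.4% for Impdh2 and 24.6% for Ak6, against 10.8% for Hprt, 6.15% for Aprt and 4.62% for Adk. By role, the median library held 37.5% of the guides of the de novo route at the lowest value in primary tumour, 66.2% in lung, 47.5% in spleen, 42.5% in liver and 50% in peritoneal metastases. For salvage guides the same medians were 0%, 20%, 7.5%, 0% and 5%, and for nontargeting guides 1%, 16.6%, 4.6%, 2% and 2.8%. Lung thus had the most guides at the lowest value in every one of these sets, nontargeting guides included. Orders among the most depleted genes, and between organs for them, are limited by this bound.

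The same genes were lower in nearly every organ and under both treatments. In primary tumour 12 purine genes were lower under IgG (11.5% of all genes lower) and 12 under anti-PD-1 (11.9%). Lung had 13 under IgG (18%), Hprt included, and 12 under anti-PD-1 (16.6%). Spleen had 12 under each (12.2% and 12.8%). Peritoneal metastases had 11 under IgG (11.2%), without Atic, and 12 under anti-PD-1 (13%), and liver had 12 under IgG (10.8%) and 10 in the single anti-PD-1 library (6.16%), without Atic and Ak6. The spread of a single library is taken from the other groups in this fit. Atic and Ak6 changed there by -3.52 and -3.20, so that the missing calls do not show a difference from the other groups. These 10 comparisons share the T0 libraries. No purine gene was higher in any of them, and of all genes only 1 was (0.0481%, in spleen under anti-PD-1).

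Whether the organs differed from one another was tested directly, without T0. According to the methods, ComBat had been applied against batch effects between organs before deposit. The lowest values, however, were shared across organs within a replicate number. Whether the correction reduced differences between organs was not tested. Between lung and primary tumour no purine gene passed the test (limma, with 5 below 0.05 before adjustment). In the whole library 7 of 2078 genes were called (0.337%) and 362 were below 0.05 before adjustment. The differences of those 5 were -1.56 for Impdh2, -1.79 for Ak8, -1.63 for Hprt, -1.66 for Impdh1 and -1.39 for Adss, while the median over all genes was -0.89 and over the 38 genes -0.85. Ppat differed by -0.18 (95% interval -1.39 to 1.02) and Gart by -0.65 (-1.88 to 0.58). Between spleen and primary tumour limma called no gene of the library. Before adjustment p was below 0.05 for 20 genes, none of them a purine gene. The differences of the purine genes there ran from -1.30 for Aprt to 0.90 for Impdh2. The 95% intervals of these organ comparisons, not adjusted over genes, reached 1.17 to 1.65 on either side, so smaller differences could not be detected in this fit. Larger ones could also go uncalled after adjustment, as did Ak8 at -1.79 between lung and primary tumour. The spread in this fit was estimated over all 41 libraries, lymph nodes included. The SD of Itpa, for example, was 2.44 in lymph nodes and 0.53 outside them, and that of Adsl 0.525 and 0.769. How far the lymph nodes widened these intervals was not tested.

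Anti-PD-1 and IgG were compared over the 7 organs. Draining and nondraining lymph nodes, where many guides sat at the lowest value, had the same weight there as each other organ. In limma no purine gene was called and 1 had p below 0.05 before adjustment. Of 2078 genes, 2 were called (0.0962%, both lower) and 151 had p below 0.05 before adjustment. That 1 purine gene was Ak8, a kinase linked to cilia, with a difference of 1.18 (SE 0.440, adjusted p = 0.509 by Benjamini-Hochberg). Among the depleted genes the differences were 0.16 for Ppat (95% interval -0.54 to 0.87), 0.31 for Paics (-0.42 to 1.04), -0.35 for Gart (-1.08 to 0.37) and -0.15 for Impdh2 (-0.86 to 0.56). Hprt differed by 0.42 (-0.44 to 1.27). In primary tumour, lung, spleen, liver and peritoneal metastases alone, Ppat differed by 0.10, 0.06, 0.06, -0.15 and -0.08. In that order the values were -0.19, 0.64, -0.64, 0.52 and 1.39 for Paics and -0.12, 0.25, -0.93, -0.73 and 0.60 for Gart. For Impdh2 they were 0.03, 0.24, -0.66, -1.22 and -0.93. Liver anti-PD-1 was 1 library. Within single organs limma called no purine gene either. Genes of the whole library were called in draining lymph nodes (0.385% lower and 0.385% higher) and nondraining ones (0.0481% lower and 0.241% higher), and in no other organ. Before adjustment, the purine genes with p below 0.05 were 7 in nondraining lymph nodes, 3 in draining lymph nodes and 1 in lung.

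In lymph nodes the values behaved differently for the whole library. Nontargeting sgRNAs were at their lowest value in 49.6% to 94% of cases per library, and in 10 of 12 libraries that was more than 50%, so that the median used for centring was itself a lowest value. Of the 8 de novo genes, Ppat, Gart, Pfas, Paics and Adsl then had medians slightly below the nontargeting median, whereas Atic (median 1.59), Prps1 (1.96) and Prps2 (1.78) were above it. Ppat ranged from -0.86 to 1.58 (median -0.40) and Gart from -0.86 to 2.42 (median -0.45) over the 12 lymph node libraries, both overlapping T0. Against the mean of the other organs all 38 purine genes were higher in the lymph nodes, as were 2077 of 2078 library genes (100%). Hprt ranged from -0.27 to 4.04 (median 0.69) and Adk from -0.05 to 6.84 (median 2.50). No purine gene was lower than T0. Calls of higher levels numbered 11 in draining nodes under IgG (35% of all genes), 8 under anti-PD-1 (28.2%), 2 in nondraining nodes under IgG (6.74%) and 1 under anti-PD-1 (8.95%). In none of the 4 groups was the share of the 38 genes above that of the library. With the median of the sgRNAs of a gene, or with the values as deposited, 0 such calls were left.

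Within each of the 12 lymph node libraries the mean level of the 12 genes called outside the nodes was below that of the other 26 purine genes, by a difference of -3.19 to -0.94 (median -1.66), against -0.69 to 0.32 in T0. The share of guides at the lowest value was 76.7% to 98.3% (median 93.3%) for the 12 genes and 44.6% to 91.5% (median 77.3%) for the other 26. The mean level of the 13 synthesis and IMP conversion genes minus that of the 4 salvage genes was -2.23 to 0.19 (median -1.19) in the 12 libraries, above all 26 libraries of the other organs (-4.18 to -2.29). The 12 genes were thus lower relative to the other purine genes in the nodes as well, by less than outside them (-5.45 to -4.10). With so many guides at the bound, nontargeting ones included, the centred levels give little room to measure a decrease against T0.

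Genes that feed the route were listed separately, without any of the 38 genes. Of 22 genes that supply 10-formyl-tetrahydrofolate or ribose 5-phosphate, 8 were lower in the mean outside the lymph nodes and none higher (median -1.01), a larger share than the 15.3% of all genes. Among them was Mthfd1, which makes 10-formyl-tetrahydrofolate in the cytosol (-5.52). A further 6 belong to the pentose phosphate pathway, namely Tkt (-5.35), Pgd (-5.10), Rpe (-4.81), G6pdx (-4.23), Rpia (-4.14) and Pgls (-2.62), with adjusted p between 1.43e-08 and 0.00482 by limma with Benjamini-Hochberg adjustment. Of 26 further genes of purine handling, such as nucleotidases, nucleoside transporters and diphosphate kinases, only Rrm1 (-6.44) and Rrm2 (-6.05) were lower, both subunits of ribonucleotide reductase, which also serves pyrimidines. That share was smaller than the 15.3% of all genes.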

How the data were processed

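Integrated sgRNAs were amplified from genomic DNA of sorted OT-I cells and sequenced. The deposited signal is a normalized value per sgRNA and library. According to the methods, the authors counted reads with MAGeCK, scaled them by nontargeting sgRNAs and applied ComBat against batch effects between organs, whose settings are not given in the sources used here. Count tests were not used because the values are not whole. Read depth is unknown. The correction can shift low values, and a lowest value was called shared where libraries of 1 replicate number agreed within a relative tolerance of 1e-09. The summed signal was 1788300 to 4228882 per library. Legends count more mice than libraries, so a library can hold several animals, and p-values measure the spread between these libraries.

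Gene levels were the mean over 5 sgRNAs of log2(value + 1), centred on the median of 250 nontargeting sgRNAs. limma 3.58.1 in R 4.3.3 fitted 41 libraries with 1 mean per group over all 2078 genes, with Benjamini-Hochberg adjustment and a threshold of 0.05. Differences of 7 gene pairs within libraries were tested by exact two-sided permutation over the 3 T0 and 26 other libraries, and also with permutation only within replicate numbers. The fit was tested on simulated data with independent noise per sgRNA and library. Those data held no batch correction and no link between libraries of a replicate number, so the test does not cover these features. Members were every library gene whose symbol is that of a listed purine enzyme. They, the gene lists and the pairs were chosen with earlier results of these data known. Values per library were given for members called in the mean contrast and for Ppat, Hprt, Aprt and Adk, and other genes were named when a list held them and they were called. All 38 symbols matched the RefSeq gene table of assembly GRCm38.p6, used for names and neighbours. Some selected genes and pairs are counted but not reported singly here. No sgRNA sequence, build or position was used here.

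The alternatives were log2(value + 10), the values as deposited, the sgRNA median in place of the mean, a filter on the lowest 10% of sgRNAs, centring on all sgRNAs, the replicate number as a block, the lymph nodes left out with the nontargeting mean, only the groups compared, and each library left out in turn. Leaving out the lowest 10% of sgRNAs by their level in T0, and other centrings for the lymph nodes, were added after seeing the data.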

Additional observations from a re-analysis of the deposited data

Results flagged for a closer look

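The change against T0 was higher in the lymph nodes than in the mean of the other organs for 38 of 38 purine genes (limma, Benjamini-Hochberg adjusted p at most 0.05 for this difference between groups of organs), with a median difference of 2.72, and 2077 of 2078 library genes (100%) were higher too. Centred on the mean of the nontargeting sgRNAs instead, 13 of the 38 were higher and 3 lower, against 432 and 63 of all genes. All 12 depleted genes were among the 13, with a median difference of 3.09 against 0.22 over all genes. With the values as deposited, 0 were higher and 38 lower, against 1 and 2058 of all genes. The part of the lowest values in these differences was not tested.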

How the results depend on the processing

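In the mean outside the lymph nodes, the same 12 purine genes were lower and no other was called under every alternative run except the one without the lowest 10% of sgRNAs. That filter, set on the mean over all libraries, removed 47 of the 60 sgRNAs of these 12 genes and 0 of the other 130, and with them all sgRNAs of 4 genes. It left 1 gene called, 2 calls for the synthesis and IMP conversion genes over the 10 groups instead of 88, 0 instead of 30 for the others and 1 pair instead of 4. Set on T0 alone, the filter removed 12 and 14 sgRNAs and left 12 genes, 80 and 22 calls and 4 pairs. Higher calls in the lymph nodes, 22 in all, were 0 with the median of the sgRNAs and 0 with the values as deposited, 9 without T0 replicate 1, 2 or 3, and 14 without draining lymph node IgG replicate 3, within 9 to 30 over all libraries left out. Between lung and primary tumour 1 purine gene was called with the median of the sgRNAs and 5 with the values as deposited, against 0. Leaving out 1 library gave 80 to 88 and 24 to 32 calls for the other counts, 12 genes and 4 pairs. With the replicate number as a block these counts were 90 and 31, 26 in the lymph nodes and 12 genes, and no call in the mean contrast changed. Same-numbered libraries deviated with r of -0.36 to 0.27 (median -0.05), and 39 of 248 pairs were above 0.1. The values had been batch-corrected, and shared lowest values followed the replicate number. These r therefore cannot show whether same-numbered libraries were paired. The main fit did not pair them. The Hprt call in lung IgG was lost with log2(value + 10), the median of the sgRNAs, all-sgRNA centring, only the groups compared, either filter on sgRNAs, the nontargeting mean without the lymph nodes, and without any 1 of several libraries, lung IgG replicate 1 and each T0 library among them. Genes near 0 changed sign, none of them called. With the median of the sgRNAs this was Adssl1 (0.0551), Ak5 (0.19), Ampd3 (0.0677), Dguok (0.0465), Gmpr (0.25), Itpa (-0.24) and Prps1 minus Prps2 (0.26, and 0.14 with the T0 filter). With the values as deposited it was Itpa (-0.57) and Xdh (-0.36), and with the block Itpa (-0.0301). With all-sgRNA centring it was Ada (0.20), Adssl1 (0.13), Ak3 (0.16), Ak5 (0.29), Ampd3 (0.18), Dguok (0.0452), Gmpr (0.23) and Gmpr2 (0.12). With the lymph nodes left out and the nontargeting mean it was Ada (0.23), Adssl1 (0.15), Ak3 (0.19), Ak5 (0.32), Ak9 (0.0053), Ampd2 (0.0010), Ampd3 (0.21), Dguok (0.0723), Gmpr (0.26) and Gmpr2 (0.15). Without 1 library, Itpa was between -0.0336 and 0.0709 and Ak5 between -0.25 and 0.0756. The cause of these changes was not tested, apart from the filter. Depth is unknown, and guides at the lowest value bound each fall.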
